A study of Mus musculus with 1 sample.

Results

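The genes of the smooth muscle contractile apparatus were described in mixed glia cultured from the mouse ventral midbrain (VM). The 10 members were Acta2, Actg2, Tpm1, Tpm2, Tagln, Cnn1, Cald1, Myh11, Myl9 and Rgs5. They were chosen by symbol among 23238 gene symbols, and each had a single row. The cells came from outbred ICR (CD-1) mice labelled postnatal day 5, were expanded in serum-containing medium and were replated on poly-D-lysine. The study compared such cultures with and without the SGK1 inhibitor GSK650394. Only the control library was analysed here, which the study's figure legend describes as treated with the vehicle DMSO. With 1 library there was no comparison between conditions, no error between cultures and no test. The values were normalised read counts as given by the authors, with a sum of 27569507.

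Smooth muscle shortens when myosin pulls on actin filaments. The heavy chain Myh11 and the regulatory light chain Myl9 belong to the motor, and the actins Acta2 and Actg2 with the tropomyosins Tpm1 and Tpm2 form the thin filament. Tagln, Cnn1 and Cald1 bind that filament, and Rgs5 dampens G protein signalling in pericytes and arterial muscle. In the brain these genes mark mural cells, the muscle cells and pericytes of vessels, but several of them are not restricted to muscle. Acta2 and Tagln are also hallmarks of myofibroblasts, and Tpm1 and Cald1 encode isoforms made by most adherent cells. Values per gene do not separate these isoforms. Serum response factor (SRF) binds a short element, the CArG box, in the control regions of many contractile genes.

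In this library Acta2 was the highest member and Rgs5 the lowest, both as deposited and per kb of exon. A gene was called detected at a value of 10 or more, and 9 of the 10 members were detected, against 67.2% of all rows. Of the members, 7 of 10 lay above 469, the median of the detected genes. The members Myh11, Actg2 and Rgs5 lay below it. Together the members held 0.297% of the sum of all values. As deposited, Acta2 alone made up 32.4% of the members' total, and the 5 highest members made up 94.9% of it. In a bulk library, fewer cells of a type and less RNA per cell cannot be told apart. The median percentile of the members among detected genes was 89.5, with Rgs5 entered at 0.

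The promoters are shown for 3 members because they stand at different levels of the range: Acta2 at the top, Myl9 in the middle and Rgs5 at the bottom. Each is the 250 bases before the RefSeq start site (GRCm38.p6), 5′ to 3′ on the strand of the gene. Capitals mark CArG boxes, including those in which 1 of the 6 inner bases is not A or T.
Acta2, chr19:34255374-34255623, minus strand: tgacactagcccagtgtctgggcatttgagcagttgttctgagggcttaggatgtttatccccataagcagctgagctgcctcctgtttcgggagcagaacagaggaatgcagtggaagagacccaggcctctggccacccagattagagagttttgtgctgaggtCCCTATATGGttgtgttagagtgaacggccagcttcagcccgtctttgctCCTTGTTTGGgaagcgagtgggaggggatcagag
Myl9, chr2:156775214-156775463, plus strand: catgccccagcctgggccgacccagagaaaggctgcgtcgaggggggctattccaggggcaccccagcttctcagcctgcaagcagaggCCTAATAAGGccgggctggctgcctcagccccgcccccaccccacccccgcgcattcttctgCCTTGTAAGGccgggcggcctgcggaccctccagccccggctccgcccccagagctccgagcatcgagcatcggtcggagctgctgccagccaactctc
Rgs5, chr1:169655251-169655500, plus strand: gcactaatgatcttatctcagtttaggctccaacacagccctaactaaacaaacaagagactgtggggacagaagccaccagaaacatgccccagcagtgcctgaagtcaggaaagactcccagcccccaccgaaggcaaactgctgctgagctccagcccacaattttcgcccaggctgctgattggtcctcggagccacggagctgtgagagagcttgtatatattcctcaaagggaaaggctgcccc

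The Acta2 promoter held 2 elements with 1 inner base outside A and T, CCCTATATGG starting 84 bases and CCTTGTTTGG starting 34 bases before the start site. The Myl9 promoter held a full CArG box, CCTAATAAGG, starting 161 bases before the start site, and a second element, CCTTGTAAGG, starting 99 bases before it. No such element lay in the Rgs5 window. Windows of 300 bases (250 before and 50 after the start) were given for 7 members, and Cald1 had 2 of them. No window was given for Tagln, Actg2 and Myh11, so their promoters were not searched. The full CArG box occurred in 1 of these 7 members and in 1.63% of all 32851 windows, searched on both strands. With 1 inner base left free, it occurred in 2 of the 7 members and in 9.98% of all windows. The 6-base element CATTCC, which TEAD factors bind in many muscle genes, lay in the windows of Acta2, Cald1 and Tpm1 and in 14.7% of all windows. The sequence TATAAA was found starting 186 bases before 1 Cald1 start and in 13.6% of all windows. The windows of Cald1, Cnn1, Rgs5, Tpm1 and Tpm2 held no CArG element of either form.

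The thin filament genes spanned the widest range. Acta2, the alpha actin of vascular smooth muscle (chromosome 19, 34241090 to 34255590 in GRCm38), had a value of 26499, or 961.2 per 1000000 of the sum. That was rank 94 of all rows and above 99.4% of detected genes. Tpm1, an actin-binding coiled coil (chromosome 9, 67022590 to 67049406), was at 23222 and rank 117. Its relative Tpm2 (chromosome 4, 43514711 to 43523765) was at 4890, above 94.0% of detected genes. Actg2, the gamma actin of visceral muscle (chromosome 6, 83512905 to 83536265), was at 106 and above 23.9% of them. Thus 3 of the 4 thin filament genes were above the median of detected genes, and the visceral actin was below it.

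The genes that bind the thin filament were each above the median. Tagln, which encodes transgelin (SM22), an actin cross-linker (chromosome 9, 45929619 to 45936058), had a value of 11771, and Cald1, which encodes caldesmon, an inhibitor of the actomyosin ATPase (chromosome 6, 34598500 to 34775473), had 11270. Both lay above at least 98.0% of detected genes. Cnn1, which encodes calponin 1 (chromosome 9, 22099216 to 22109630), was at 1509, above 77.5%. Calponin 1 is a common marker of differentiated smooth muscle.

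The motor genes lay on either side of the median of detected genes. Myl9, the regulatory light chain on which contraction is switched (chromosome 2, 156775420 to 156781658), was at 2265 and above 84.9% of detected genes. Myh11, the smooth muscle heavy chain and a marker of mature mural muscle (chromosome 16, 14194535 to 14291372), was at 284 and above 39.6%. The G protein regulator Rgs5, a marker of brain pericytes (chromosome 1, 169655501 to 169695813), had a value of 9, just under the detection minimum. Its level was 0.326 per 1000000 of the sum.

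**Figure D1:**
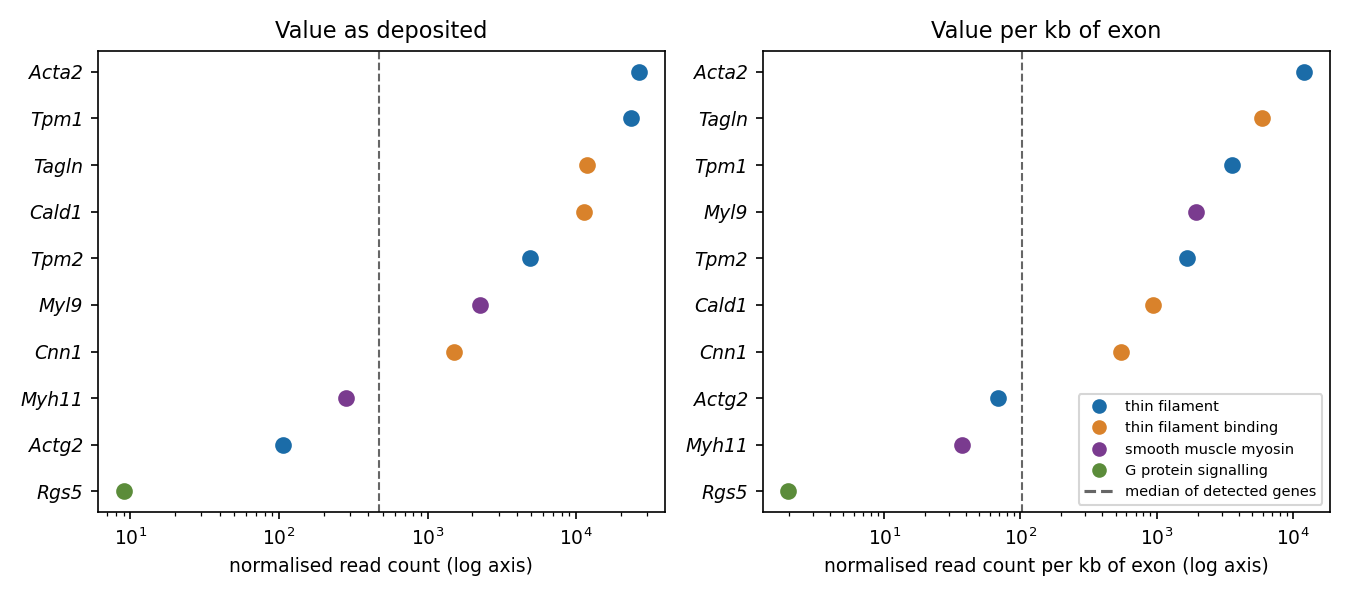
Values of the 10 members in the control library, as normalised read counts (left) and per kb of exon (right), both on log axes, coloured by role, with the dashed line at the median of detected genes (469 as deposited and 102.4 per kb). On both scales 7 members lie right of the line, and Myh11, Actg2 and Rgs5 lie left of it.

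**Figure D2:**
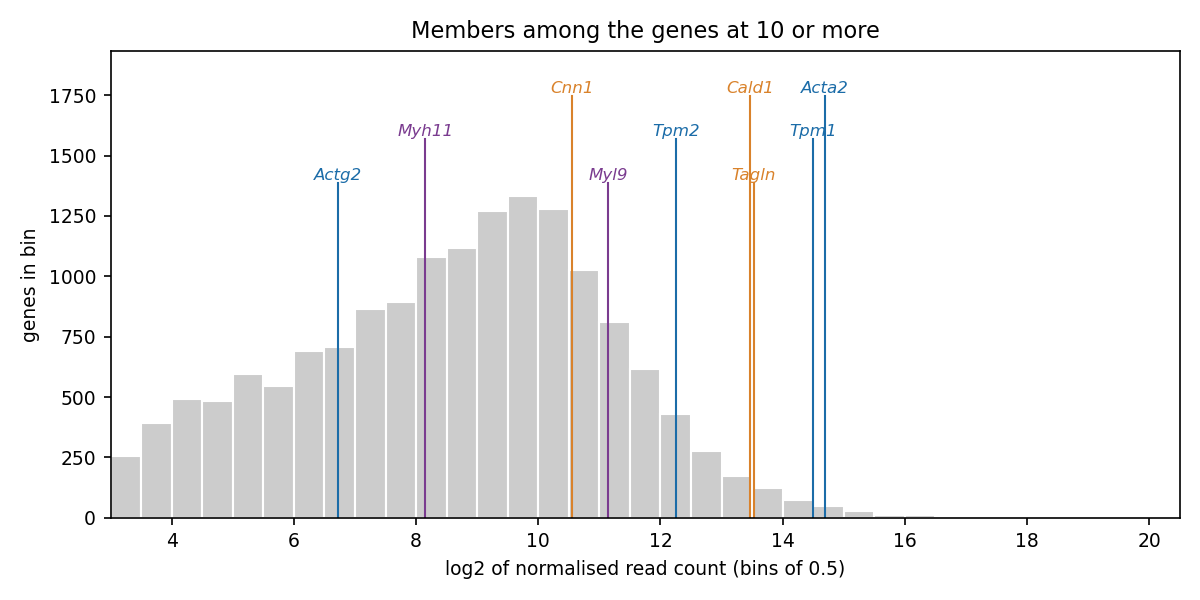
Number of genes (y) by log2 of the normalised read count (x, bins of 0.5) for the 15648 genes at 10 or more, with vertical lines at the 9 detected members, coloured by role as in the plot of member values; line height has no meaning. Acta2, Tpm1, Tagln and Cald1 stand in the right tail, while Actg2 and Myh11 stand left of the median.

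To compare the members with each other, each value was divided by the length of the gene's exons in kb (the union of exons annotated in GENCODE M21). On this scale the order was Acta2 at 12067, Tagln at 5921, Tpm1 at 3581, Myl9 at 1949, Tpm2 at 1681, Cald1 at 936, Cnn1 at 551.5, Actg2 at 68.1, Myh11 at 37.4 and Rgs5 at 1.98. The median over detected genes was 102.4 per kb. The largest steps between neighbours were the 18.9-fold step from Myh11 to Rgs5 and the 8.10-fold step from Cnn1 to Actg2. Myl9 and Tpm2 were 1.16-fold apart, and the other steps ran from 1.65-fold to 2.04-fold. Without replicates it cannot be said which neighbours differ beyond the spread between cultures.

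The order in the upper part of the range depended on the length used. The annotation lists 21 transcripts for Tpm1 and 18 for Cald1, so the union of their exons (6485 and 12041 bases) is far longer than their longest transcripts (2890 and 4777 bases). Per kb of the longest transcript, Tpm1 was at 8035, above Tagln at 7380, and Cald1 was at 2359, above Tpm2 at 2248 and Myl9 at 2008. Of the 45 pairs of members, 41 kept their order. Acta2 stayed first, and Cnn1, Actg2, Myh11 and Rgs5 stayed the lowest 4 in that order.

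Reads of near-identical genes can be assigned to either copy, so the members' transcripts were compared with those of all other annotated genes. For 7 of the 10 members no stretch of 50 bases recurred in another gene. This included Actg2, with 0 of 1592 such stretches, although smooth muscle actins are close relatives. In Acta2, 7 of 2146 stretches (0.326%) recurred, in the cytoplasmic actin Actg1 and in actin pseudogenes. In Myh11, 26 of 7644 (0.340%) recurred, all 26 in Myh9 and 16 of them also in Myh10. The length of the reads is not given in the sources used here, and shorter reads would be shared more often. For Tagln, 58.3% of the stretches recurred, since its exons overlap those of the antisense gene Gm48529 over 1241 bases (62.4% of its exon length) and those of Pcsk7 over 108 bases (5.43%), both on the opposite strand. The strand setting of the counting was not stated, so reads from the overlapped part of Tagln cannot be told apart from those of these genes. Pcsk7 had a value of 628, and Gm48529 had no row. No other member had an exon overlap with another annotated gene.

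The members except Cald1, for which no relative was listed, were next set beside relatives, most of them used by non-muscle cells, with levels per kb. Among 6 actins, the cytoplasmic actins Actb and Actg1 made up 48.2% and 36.9% of the summed level, and Acta2 made up 14.6%. Acta2 was thus 0.304 times the level of Actb. Actg2 made up 0.0826%, the skeletal actin Acta1 0.156% and the cardiac actin Actc1 0.0180%. Acta2 was 177.2-fold above Actg2 per kb. Of the summed level of the 4 muscle actins per kb, Acta2 held 98.3%.

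The tropomyosins were all well represented. Tpm1 made up 20.7% and Tpm2 9.73% of the summed level per kb, against 23.6% for Tpm3 and 46% for Tpm4, whose products are mostly cytoskeletal. This ranking turned with the scale. As deposited, the shares were 33% for Tpm1, 6.95% for Tpm2, 35.2% for Tpm3 and 24.9% for Tpm4, and per kb of the longest transcript Tpm3 was at 10436 and Tpm4 at 8222. Tpm1 over Tpm3 was 0.937 as deposited and 0.880 per kb. Tpm2 was 0.212 times Tpm4 per kb.

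The thin filament binders differed within their family of 6 genes. Tagln made up 36.2% of the summed level per kb, and its level was 2.03-fold that of Tagln2, the form common in non-muscle cells. For 8 members, 1 relative outside the members was chosen by family for a paired comparison. Of these 8 pairs, Tagln and Tagln2 were the 1 pair in which the member was higher. This held per kb of either length and as deposited. Against relatives that were not paired, members could be higher. Per kb, Acta2 was above Acta1 and Actc1, and Cnn1 at 551.5 was above Tagln3 at 405.6. Tagln is also the member with the antisense overlap. Cnn1 made up 3.37%, less than Cnn2 (11.6%) and Cnn3 (28.5%), and was 0.118 times Cnn3. Tagln3, the neuronal form, made up 2.48%. Exons of Cnn3 and Tpm4 overlap opposite-strand genes over 17.7% and 6.08% of their length.

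Among the myosins, the heavy and light chains differed. Myh9, the heavy chain of non-muscle myosin IIA, made up 85.2% of 4 class II heavy chains per kb and Myh10 made up 11.4%. Myh14 made up 2.51% and Myh11 0.938%. Myh9 was 90.8-fold above Myh11 per kb. For the light chains the gap was far smaller. Myl9 was 0.670 times Myl12a per kb and 0.232 times as deposited, where the values were 2265 and 9781. Exons of Myl12a overlap those of Myl12b on the same strand over 13.8% of their length. Myl12b was at 10558, and it has 2 gene models in the annotation and so no length here. The essential light chain Myl6, shared by muscle and non-muscle myosin, was at 31695, and its relative Myl6b at 217.

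Rgs5 was low within its own family too. Of 10 R4-type regulators, Rgs2 was highest per kb at 734.2, followed by Rgs1 at 392.1 and Rgs16 at 383.1. Rgs4 was at 111, Rgs3 at 31.0, Rgs18 at 21.2, Rgs8 at 19.3 and Rgs5 at 1.98, and Rgs13 and Rgs21 were listed at 0. Rgs4 was 56.1-fold above Rgs5 per kb.

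**Figure D3:**
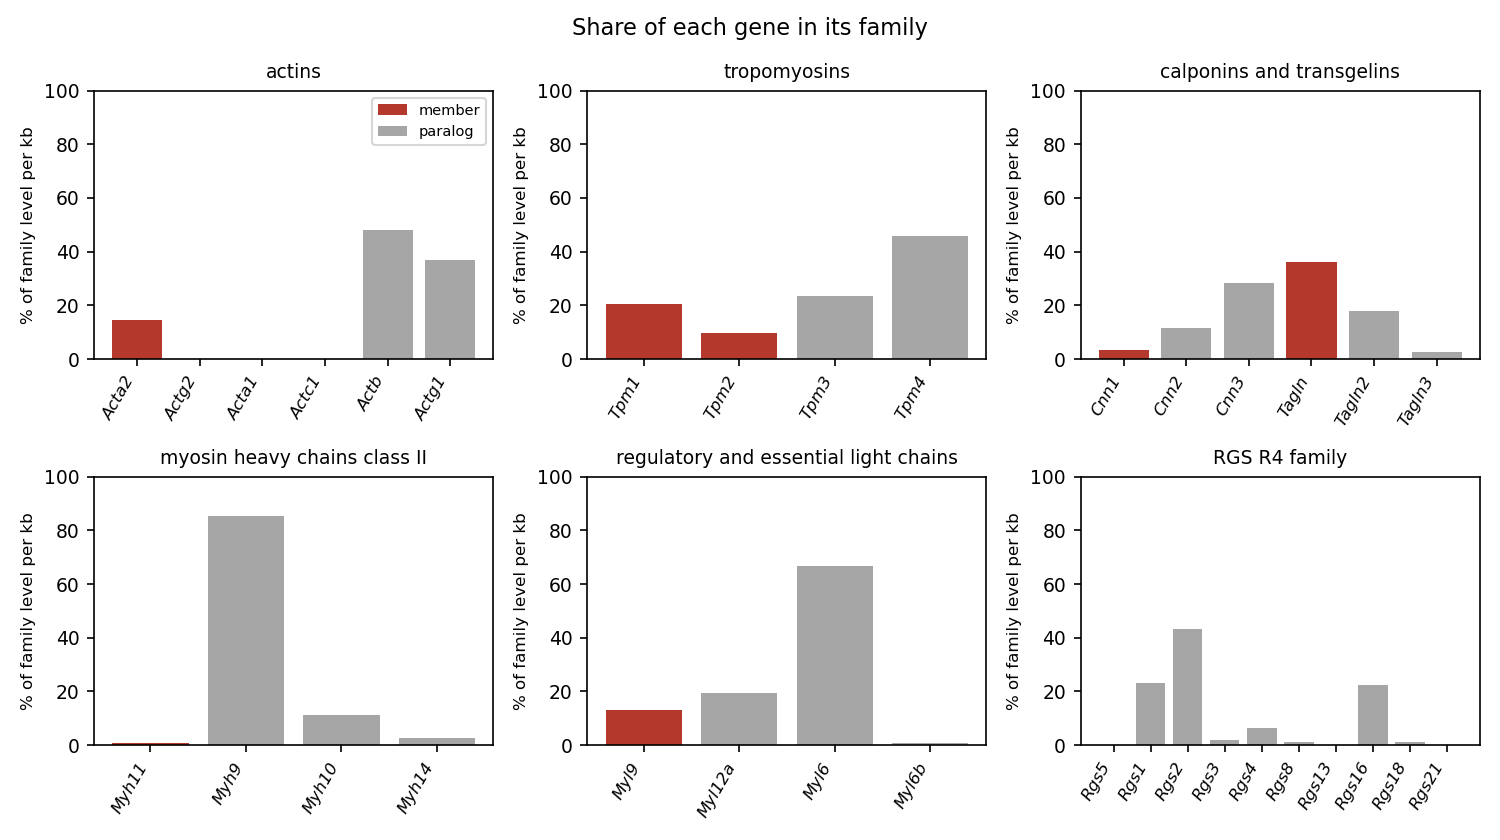
Share of each gene (y, percent of the summed level per kb of exon) in 6 gene families in the control library, with members in red and relatives in grey; Myl12b has no length and is left out. Myh11 (0.938%) and Cnn1 (3.37%) are small parts of their families, whereas Tagln (36.2%) is the largest bar of its panel.

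Other genes of smooth muscle contraction were mixed, with values given as deposited. Of 18 such genes, 17 were detected, against 67.2% of all rows. Of the 18, 8 lay above 469, and their median was 358.5, against 3577.5 for the members. The highest values as deposited were the actin cross-linker Flna at 24767, the adhesion protein gene Vcl at 4308 and the adaptor gene Pdlim7 at 4045, each of which serves the cytoskeleton of many cells. Exons of Vcl overlap those of Ap3m1 on the opposite strand over 25.5% of their length. Phospholamban (Pln), which restrains the calcium pump, was listed at 0. A further 5 genes of this list were picked after their values were seen. The muscle intermediate filament gene Des was at 10, the phosphatase inhibitor gene Ppp1r14a at 19, the potassium channel subunit gene Kcnmb1 at 233 and leiomodin 1 (Lmod1) at 419. These 4 were below the median of detected genes, and Hspb6, a small heat shock protein gene of muscle, was above it at 3511.

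The transcription factors and cofactors upstream of the contractile genes were detected throughout, 10 of 10, against 67.2% of all rows. As deposited, their median was 502, and 5 of the 10 lay above the median of detected genes. SRF itself (Srf) was at 1448. Its myocardin-related partners, which sense free actin and are widely expressed, were at 1176 (Mrtfa, listed as Mkl1) and 1004 (Mrtfb, listed as Mkl2). Myocardin (Myocd), the partner restricted to smooth and cardiac muscle, was at 36. Per kb the levels were 500.5 for Srf, 192.3 for Mrtfa, 111.7 for Mrtfb and 5.604 for Myocd, so Myocd was the lowest of the 10 on both scales. The ternary complex factors, which compete with these partners for SRF, were at 332 for Elk1 and 215 for Elk4. The LIM-domain genes Fhl1 and Fhl2 were at 4415 and 569, and the repressors of the contractile program Klf4 and Foxo4 at 435 and 368. Per kb, Klf4 at 142.7 and Foxo4 at 105.6 also lay above the median of detected genes, which was 102.4.

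The enzymes that set light chain phosphorylation were also all detected, 10 of 10 against 67.2% of all rows, with a median of 2448. The small GTPase gene Rhoa was at 20070, and its kinases were at 2413 (Rock1) and 2483 (Rock2). The exchange factors Arhgef1 and Arhgef12 were at 5623 and 1644. For the myosin phosphatase, the targeting subunit Ppp1r12a was at 5433 and the catalytic subunit Ppp1cb at 4647. Exons of Ppp1cb overlap another gene on the same strand over 17.5% of their length. The calcium-dependent kinase that starts contraction, Mylk, was at 216, the cGMP-dependent kinase Prkg1 at 337 and the phosphatase inhibitor Ppp1r14a at 19, and these were the only 3 of the 10 below the median of detected genes.

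Which cells carried the members was not known, so markers of several cell types were counted in the same library. Those of glia follow in the next paragraph. Of all rows 67.2% were detected, and a detection count near that share does not set a list apart. Of 14 pericyte markers 10 were detected, with a median of 55. Anpep was at 3183, Cspg4 at 2634 and Pdgfrb at 1150, and Cspg4 is also made by oligodendrocyte precursors and Anpep by myeloid cells. Tbx18 and Mcam, also above the median of detected genes, were at 617 and 559. Higd1b, Ndufa4l2 and Atp13a5, which are narrow markers of brain pericytes, were listed at 0, and the channel genes Kcnj8 and Abcc9 were at 5 and 25. Tbx18, Mcam, Kcnj8 and Abcc9 were named after their values were seen. Of 16 fibroblast and myofibroblast markers 15 were detected, with a median of 2994, led by fibronectin (Fn1) at 95749 and the collagen genes Col1a1 at 16915 and Col1a2 at 8468. The lowest was Lrrc15 at 9, and Lum at 455, Pdgfra at 188, Fbln1 at 126 and Fap at 29, named after their values were seen, were also below the median of detected genes. Of 22 striated muscle markers 17 were detected, with a median of 24.5. Tnni2 was highest at 529, followed by Acta1 at 198 and Tnnt1 at 197, and Myl3 was listed at 0. The part of each cell type in the members' levels was not tested. Nor was it tested which cells made the listed markers, including fibronectin and the collagens.

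The labelled glial cells were present by their markers. Microglia markers, 12 of 12 detected against 67.2% of all rows, had a median of 14866.5. Astrocyte markers, 11 of 12 detected, had a median of 2966.5. Summed levels were 7878.5 per 1000000 of the sum for microglia markers, 5626.9 for fibroblast and myofibroblast markers, 2968.0 for the members, 2114.4 for astrocyte markers and 304.9 for pericyte markers. The lists differ in the number and length of their genes, so these sums do not give the make-up of the culture. By stained cells, the paper reports more astrocytes than microglia in such cultures. Fn1 alone held 61.7% of the fibroblast sum, which was 2153.9 per 1000000 without it, below the members (an alternative chosen after seeing the data). Oligodendrocyte markers (10 of 10 detected, against 67.2% of all rows) had a median of 597.5. Neuron markers (9 of 12 detected) had a median of 70.5 and endothelial markers (9 of 12) 34.5. Among the endothelial markers Flt1 was at 2427, Vwf at 295 and Kdr at 119, and Tek was listed at 0. Some genes named from the families and lists have overlaps that are not given above. Among these genes, Pln, Tbx18 and Rgs16 shared 59.6%, 20.6% and 10.1% of their exon length with 1 opposite-strand gene each. No other of them shared over 10% with a single gene.

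**Figure D4:**
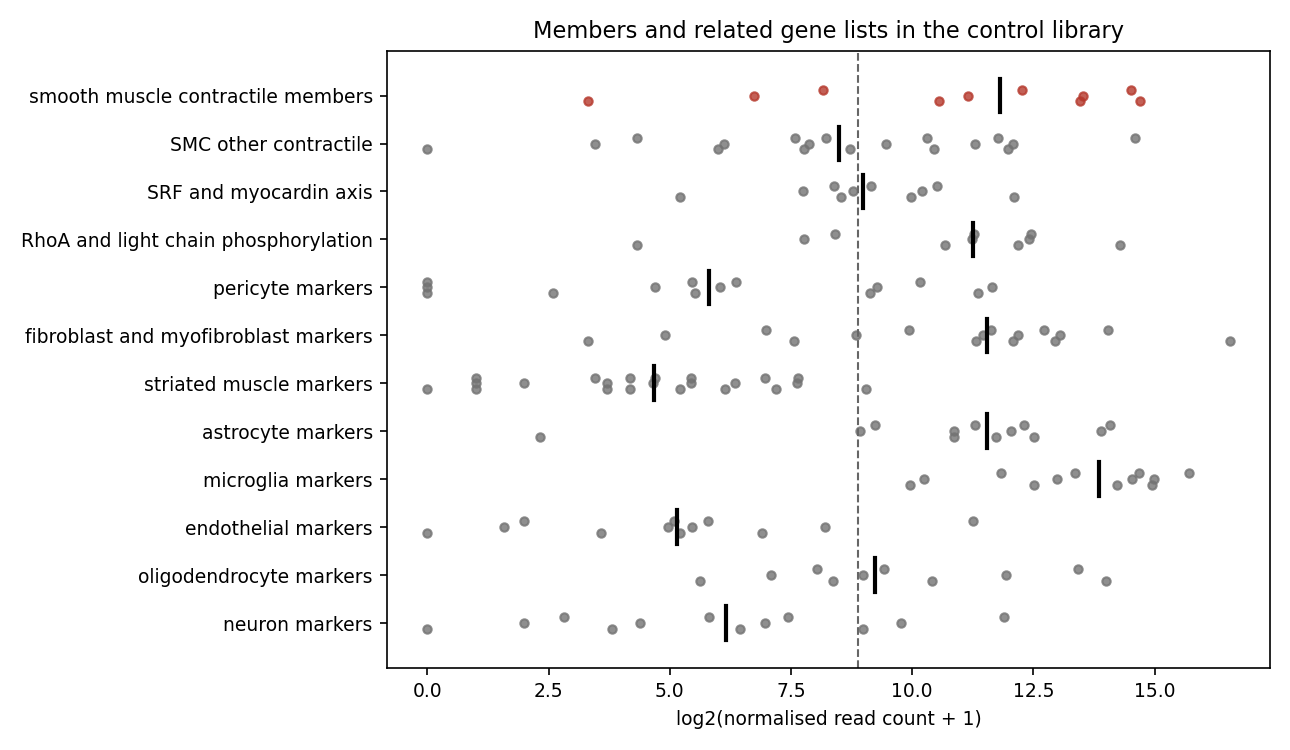
Values of the members (red) and of the genes of 11 related lists (grey) in the control library on the log2(normalised read count + 1) scale, with a black bar at each list's median and the dashed line at the median of detected genes. The medians of the members (3577.5), fibroblast (2994), astrocyte (2966.5) and microglia lists (14866.5) lie right of the line. So do those of the RhoA (2448), oligodendrocyte (597.5) and SRF lists (502). Left of it lie the medians of the other smooth muscle contractile genes (358.5) and of the neuron list (70.5). The pericyte (55), endothelial (34.5) and striated muscle lists (24.5) also have their medians left of it.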

How the data were processed

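RNA of VM-derived mixed glia was extracted with Trizol, and 1 control library was made from total RNA with a SMARTer kit. The study's methods state trimming at a quality of 20, alignment to GRCm38/mm10 with STAR and counting of exon reads with HTSeq-count on the genes of RefSeq Release 105. The submitters' processing notes name TopHat and edgeR instead, with no role given. The deposited values are normalised read counts in whole numbers, and they were treated as a score because their normalisation was not stated. Strand setting, multi-mapped reads and versions are not given in the sources used here. The number of reads is unknown, so no interval or floor is given.

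Of 23282 rows, 98.3% were matched by symbol or older symbol to GENCODE M21 (GRCm38), which gave coordinates and exon lengths and is not the annotation that was counted. Percentiles are shares of rows at 10 or more with a lower value. Transcripts were compared in words of 50 bases on both strands. Promoter sequences came from RefSeq, and the form of the CArG box with 1 free inner base was added after the strict form had been searched. The steps were tested on simulated data. Computations used Python 3.11.15 and matplotlib 3.10.9.

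The members and lists were chosen with earlier results of these data known. Named genes were the members, their families and the whole of each list of at most 10 genes, except oligodendrocyte markers. Of longer lists, the 3 highest genes, the lowest and those at 0 were named, except that the astrocyte, microglia and neuron lists are given by counts and medians. No comparison between groups and no set test was made. Alternatives changed the detection minimum, the genes ranked, the library total, the length, the summary of a list and the word length.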

Additional observations from a re-analysis of the deposited data

How the results depend on the processing

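Without replicates or raw counts, a value was taken as moved when it changed by over 1.5 times. Of 83 recomputed values, 66 stayed within that and 17 moved, among them the fibroblast sum without Fn1, an alternative added after the data were seen. Detected members numbered 9 or 10 at minima of 1 and 100, their median percentile ran from 88.9 to 92.4, and their share of the sum from 0.201% (without Acta2) to 0.343% (without the 10 highest rows). As ratios to the median of detected genes, list values moved as follows. Per kb of exon, RhoA and light chain phosphorylation went from 5.22 to 1.52, striated muscle from 0.0522 to 0.0795, microglia from 31.7 to 49.6 and oligodendrocyte from 1.27 to 2.40. With detected genes only, which by construction drops the lowest values, pericyte went from 0.117 to 0.682, striated muscle to 0.0896 and neuron from 0.150 to 0.264. With the mean of log2 values, fibroblast went from 6.38 to 3.91 at either pseudocount and oligodendrocyte to 2.14 at a pseudocount of 1 and 2.16 at 0.1. Myh11 over Myh9 went from 0.0110 to 0.00647 as deposited. Myl9 over Myl12a went from 0.670 to 0.232 as deposited and 0.398 per kb of the longest transcript. The sequence of Acta2 and of Myh11 shared with other genes became 0% with words of 100 bases, as longer words are harder to share. The other causes were not tested. No paired analysis was possible because the data hold 1 library. That library limits each value to this culture.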
